A study of Homo sapiens with 6 samples.

Results

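The gene expression response of KON cells to DLEU1 knockdown was set against that of HSC-3 and Ca9-22 cells. The 3 are established lines of oral squamous cell carcinoma (OSCC), the cancer of the lining of the mouth. For each line, cells were harvested 72 h after a control siRNA (siCtrl) on 1 array and 72 h after siDLEU1-2, which targets the long noncoding RNA DLEU1, on another, so the series holds 6 one-color arrays, 2 of them from KON. All lines were grown in the same medium with serum and transfected transiently with the same lipid reagent. A log2 fold change is the log2 level after siDLEU1-2 minus that after siCtrl in the same line, and a log2 level is relative to the 75th percentile of its array, so that 0 is the level of a probe at that percentile. For each probe, the KON difference is the log2 fold change in KON minus the mean of the log2 fold changes in HSC-3 and Ca9-22. It was computed for the 18094 of 50599 probes well above background on each of the 6 arrays, which stand for 14015 of 36337 gene names. With 1 array per line and siRNA, no difference below has a replicate within a line, and the values describe these 6 cultures.

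The siRNA acts through its antisense strand, which pairs with the target RNA inside the Argonaute protein, and bases 2 to 8 of that strand, its seed, can also pair with other transcripts. The sequence is given here, with the seed in capitals, because the same strand was transfected into each line.
siDLEU1-2 antisense strand: uUAAGUGCgauaaccccugua
siDLEU1-2 sense strand: cagggguuaucgcacuuaagc
The DLEU1 probe checked the labels. Its log2 level in KON was 2.16 with siCtrl and -1.48 with siDLEU1-2, against 1.39 and -2.71 in HSC-3 and 1.56 and -1.88 in Ca9-22. DLEU1 was therefore lower in each line, with a log2 fold change of -3.63 in KON between the -4.10 of HSC-3 and the -3.44 of Ca9-22. The KON difference of DLEU1 was 0.13, and it turned to -0.16 with normexp background correction. The complement of the seed, GCACTTA, was found in 48 of the 18094 probe sequences (0.265%) and in none of the probes of the classes of KON response described below. Probes cover only 60-base stretches of a transcript, so the rest of each transcript was not searched.

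Some of the genes that the study names are given next. TP63, a transcription factor of squamous epithelium, was well above background on 5 arrays and so was left out by the filter. TP63 had log2 fold changes of -2.35 in KON, -2.37 in HSC-3, and -2.68 in Ca9-22. Hyaluronan synthase HAS3 was lower in KON with a log2 fold change of -3.52, against -5.58 in HSC-3 and -3.60 in Ca9-22, a KON difference of 1.07 in which HSC-3 was the line that stood apart. Its second, dimmer probe had log2 fold changes of -0.43 in KON, -0.16 in HSC-3, and -0.31 in Ca9-22. The cell surface glycoprotein CD44 gave a KON difference of 0.32 that rested on HSC-3 (-0.024 without it), the methyltransferase SMYD2 one of -0.15, E-cadherin (CDH1) one of 0.02, and the mitotic inhibitor kinase WEE1 one of 0.22. GALNT3, a glycosyltransferase, was lower by -3.81 in KON against -2.94 and -3.12, a KON difference of -0.77 that was -0.35 with normexp.

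The arrays were alike in quality. Between 43 and 45.66% of the probes of an array were well above background, the 75th percentile of the signal lay between 200 and 257, and no spot was saturated. All 6 arrays were on 1 slide with 1 scan time. Over the 581 probes with 10 spots each, the replicate spots of a probe had a median SD between 0.0595 and 0.0656 log2 units, a measure of error within arrays and not between cultures. Of 12 markers of squamous epithelium, 11 were well above background on all arrays, and TP63 was so on 5. None of 6 endothelial markers and 1 of 7 fibroblast markers, COL1A1, reached this. Of 8 leukocyte markers 4 did, namely CD14, CD68, CD79A, and CSF1R, while the defining marker PTPRC had a probe well above background on 2 arrays. The log2 of the summed level of the leukocyte markers was 3.49 and 2.80 in KON (siCtrl, siDLEU1-2), 5.90 and 6.20 in HSC-3, and 2.98 and 3.08 in Ca9-22. On a bulk array, fewer cells in a state and less RNA per cell cannot be told apart.

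The cell cycle genes that follow are controlled in large part at their promoters. E2F transcription factors switch on the genes of DNA replication at the entry to S phase, while genes of mitosis share a cell cycle homology region (CHR) and CCAAT boxes and are held down by the DREAM complex in resting cells. The inflammatory genes respond to NF-kappaB, a dimer of Rel family proteins that is released from its inhibitors by cytokines and stress. Squamous carcinoma cells often show NF-kappaB activity and make cytokines of their own.

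A linear model over the 6 arrays (limma, with terms for the lines, the siRNA, and the siRNA in KON) tested whether the response of KON differed from that of the other lines. It called 0 of 18094 probes (0%) at an adjusted p below 0.05, and the smallest adjusted p was 0.72. At an unadjusted p below 0.05 there were 1248 probes, and 1194, 1183, and 1298 with quantile normalization, with normexp background correction, and with an intensity trend in the variances, each with 0 calls. The model has 1 residual degree of freedom, which is the difference between HSC-3 and Ca9-22, so the genes below are given by the size of their values and none is called. The standard error of the KON difference was 0.28 for E2F2 and 0.74 for COL12A1.

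The KON difference was centered near 0, with a median of 0.011, a range from -0.29 to 0.29 for the middle 50% of probes, and one from -1.44 to 1.43 between the 1st and the 99th percentiles. A probe was placed in the KON-only class where it was at least 2-fold changed in KON, under 1.5-fold in both other lines, and had a KON difference of at least 1 log2 unit. By this rule 100 probes (0.553%) were higher and 121 (0.669%) were lower in KON only. The same rule gave 139 higher (0.768%) and 79 lower (0.437%) probes in HSC-3 only and 78 higher (0.431%) and 79 lower (0.437%) in Ca9-22 only. KON thus had 221 such probes, HSC-3 218, and Ca9-22 157. Represented by its brightest probe, a gene was higher in KON only in 82 cases (0.585% of 14015) and lower in 97 (0.692%). The share of higher probes among the KON-only calls was 45.2%, and it was 31.6% (71 higher, 154 lower) when arrays were centered on their median, which moves the median log2 fold change of all probes in KON by -0.119 and that of HSC-3 by -0.027. Normexp background correction left 36 higher and 37 lower probes, of which 29 and 33 were among the original ones. This setting starts from the mean spot signal before background subtraction, adds an offset of 50, and ends with quantile normalization between arrays. The part of each step in its changes was not tested.

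The threshold cuts through a continuum. Just inside it, DENND5B was 2.0-fold higher in KON, and just outside, PKIA had nearly the same value (log2 fold changes of 1.0001 and 0.9997). On the lower side POM121L12 was inside at 2.02-fold and the transcript XLOC_011769 outside at 1.97-fold.

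**Figure D1:**
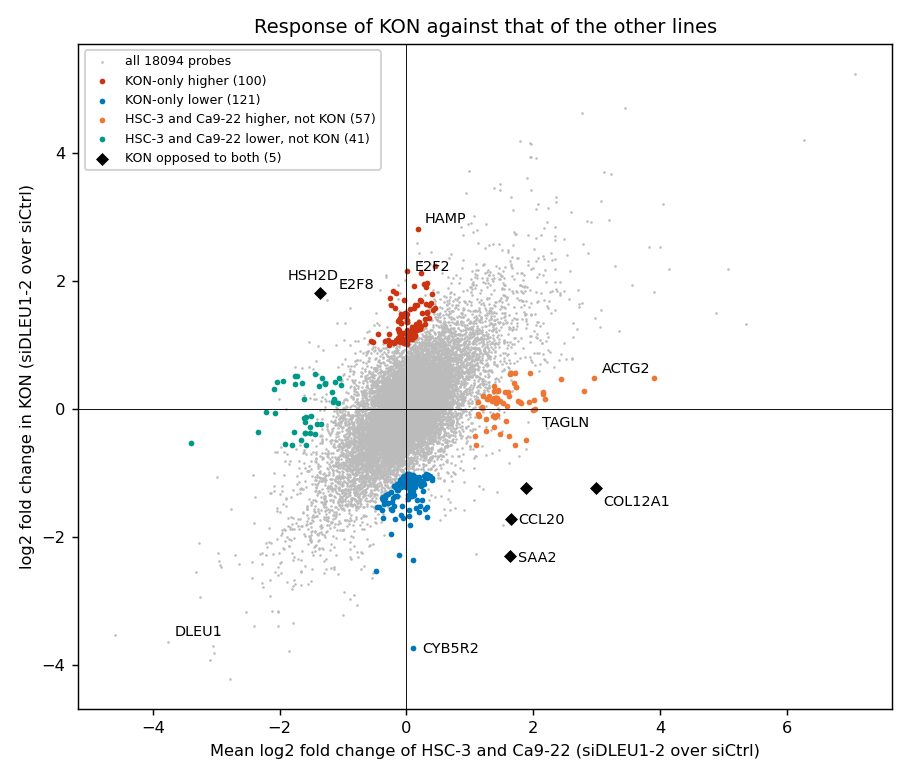
Each point is 1 of 18094 probes. The x axis is the mean log2 fold change (siDLEU1-2 over siCtrl) of HSC-3 and Ca9-22, and the y axis is the log2 fold change in KON. Colored points are the classes of KON response. Red and blue points lie above and below the cloud near x = 0, orange and green points lie to its sides near y = 0, and the 5 black diamonds lie in the quadrants where the signs differ. DLEU1 lies with the probes that were lower in all lines.

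Among the genes that were higher in KON only, the E2F transcription factors E2F2 and E2F8 had the largest KON differences after HAMP, which is described further on. E2F2, an activator of S phase genes, had log2 levels of 1.21 after siCtrl and 3.37 after siDLEU1-2 in KON, 1.12 and 1.14 in HSC-3, and 2.86 and 2.87 in Ca9-22. It was 4.46-fold higher in KON and within 1.02-fold in the other lines. After siCtrl its level in KON was near that of HSC-3, and after siDLEU1-2 it was above both other lines. E2F8, an atypical family member that represses E2F targets late in S phase, was at -0.19 and 1.66 in KON, -0.66 and -1.14 in HSC-3, and -0.21 and -0.16 in Ca9-22. The 3 lines lay within 0.5 log2 units of each other after siCtrl, and KON stood 1.8 above the next line after siDLEU1-2. E2F2 and E2F8 had KON differences of 2.14 and 2.07, and these were 1.94 and 1.67 with normexp.

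The promoter of E2F2 is shown because E2F genes are themselves known E2F targets. It is the 250 bases before the transcription start in RefSeq (chr1:23531234-23531483, minus strand, GRCh38.p14), 5′ to 3′ in the direction of the gene, and the capitals mark a match to 1 of the letters TTTGGCGC, TTTCGCGC, TTTCCCGC, or TTTGCCGC on either strand, here called the E2F motif.
E2F2: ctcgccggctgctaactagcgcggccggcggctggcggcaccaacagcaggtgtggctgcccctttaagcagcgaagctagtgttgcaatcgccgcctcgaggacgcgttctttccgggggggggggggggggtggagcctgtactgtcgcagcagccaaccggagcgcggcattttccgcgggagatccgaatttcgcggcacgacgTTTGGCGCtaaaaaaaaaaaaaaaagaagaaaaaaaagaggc
The match lies 35 to 42 bases before the start. A match describes the letters only and is not a measured binding site.

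Other genes of DNA replication also had their highest fold change in KON. Of the 47 genes of this list, which holds the helicase subunits (MCM2 to MCM7, GINS), origin factors (ORC1, ORC6, CDC6, CDT1), polymerases, clamp and loader (PCNA, RFC), and nucleotide synthesis enzymes (TYMS, RRM1, RRM2) and also counts E2F1, E2F2, E2F8, CCNE1, and CCNE2, 46 had a higher log2 fold change in KON than in both other lines and none a lower one. Over all genes, KON was above both other lines for 36.1% and below both for 34.5%. The median log2 fold change of the list was 0.45 in KON, -0.18 in HSC-3, and 0.04 in Ca9-22, against 0.020, 0.0041, and -0.0094 over all genes. The 46 became 43 with median centering and was 46 with quantile normalization and with normexp. In KON 40 of the 47 genes were above 0, in Ca9-22 27, and in HSC-3 15.

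Among the origin and helicase genes, MCM3 had log2 levels of 4.92 and 6.16 in KON, 4.68 and 4.92 in HSC-3, and 4.70 and 4.99 in Ca9-22. It was 2.35-fold higher in KON against 1.18-fold and 1.22-fold. The lines began within 0.24 of each other, and KON stood apart only after siDLEU1-2. CDT1, which loads the helicase onto origins, was 2.77-fold higher in KON, 1.40-fold in HSC-3, and 1.60-fold in Ca9-22. ORC6, a subunit of the origin recognition complex, was 2.71-fold higher in KON, at log2 levels of -0.01 and -0.04 in HSC-3, and 1.91-fold higher in Ca9-22. CDC6, the other loader, was 3.31-fold higher in KON but 3.1-fold in Ca9-22, so that it set HSC-3 and not KON apart. Not every member was higher in KON, since MCM7 was 2.0-fold lower there, 2.03-fold lower in HSC-3, and 2.43-fold lower in Ca9-22. CDC45, its partner in the replicative helicase, was also lower in each line, by -0.87 in KON, -1.28 in HSC-3, and -1.02 in Ca9-22. For MCM7 the values of KON and HSC-3 were nearly equal.

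Cyclin E2 (CCNE2), the partner of CDK2 at the start of S phase, had 2 probes. The brighter had log2 fold changes of 0.80 in KON, -0.55 in HSC-3, and -0.41 in Ca9-22. The dimmer fell in the KON-only class at 1.13, -0.44, and 0.20. In the list of G1 cyclins, CDKs, and CDK inhibitors, 10 of 15 genes were above both other lines in KON and 2 below, and the medians were 0.40 in KON, -0.18 in HSC-3, and -0.33 in Ca9-22. CDKN2C, an inhibitor of CDK4 and CDK6, had the largest KON difference of this list, 1.52, as it was at 0.82 and 1.0 in KON, 1.30 and -0.47 in HSC-3, and 2.55 and 1.64 in Ca9-22. RBL2, a retinoblastoma family protein of the DREAM complex, had the lowest, with log2 fold changes of -1.49 in KON, -0.86 in HSC-3, and -0.81 in Ca9-22. CDK6 itself was higher in each line, 4.52-fold in KON, 2.70-fold in HSC-3, and 1.70-fold in Ca9-22.

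Genes of mitosis and the spindle showed the same order with a change of sign. Of 40 genes measured, 38 had a higher log2 fold change in KON than in both other lines and none a lower one, against 36.1% and 34.5% of all genes. The median was 0.23 in KON, -0.63 in HSC-3, and -0.37 in Ca9-22, and the median KON difference was 0.78. In HSC-3 38 of the 40 genes and in Ca9-22 35 were below 0, while in KON 26 were above 0 and 14 below. The count of 38 was unchanged by median centering, quantile normalization, and normexp, and the median in KON was between 0.12 and 0.24 over all scalings run. Sizes within KON were small, as 1 of the 40 genes, the ubiquitin-conjugating enzyme UBE2C, was at least 2-fold higher and 1, the kinesin KIF14, was at least 2-fold lower. The difference between the lines therefore lay mostly in the lower levels of these genes in HSC-3 and Ca9-22 after siDLEU1-2.

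KIF20A, a kinesin of the central spindle, had the largest KON difference of the list, 1.31. Its log2 levels were 2.48 and 2.61 in KON, 2.05 and 0.62 in HSC-3, and 1.71 and 0.80 in Ca9-22. The other lines were lower after siDLEU1-2 than after siCtrl, and KON was not. PLK1, the polo-like kinase that drives mitotic entry, was at 2.06 and 2.71 in KON, 0.74 and 0.00 in HSC-3, and 1.89 and 1.67 in Ca9-22. Cyclin B2 (CCNB2), a partner of CDK1, was at 5.63 and 6.03 in KON, 4.73 and 4.18 in HSC-3, and 5.52 and 5.01 in Ca9-22. CCNB2 after siCtrl was alike in KON and Ca9-22, and after siDLEU1-2 they differed by more than 1 log2 unit. CDK1 had log2 fold changes of 0.63 in KON, -0.37 in HSC-3, and -0.12 in Ca9-22. ECT2, which acts in cytokinesis, had the smallest KON difference, 0.08, because its log2 fold change of -0.29 in KON lay between -0.14 in HSC-3 and -0.59 in Ca9-22. Of genes outside these lists, chosen after their values were seen, SKA3 of the kinetochore was 2.39-fold higher in KON and MND1, a meiotic recombination factor, 2.58-fold, both in the KON-only class.

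**Figure D2:**
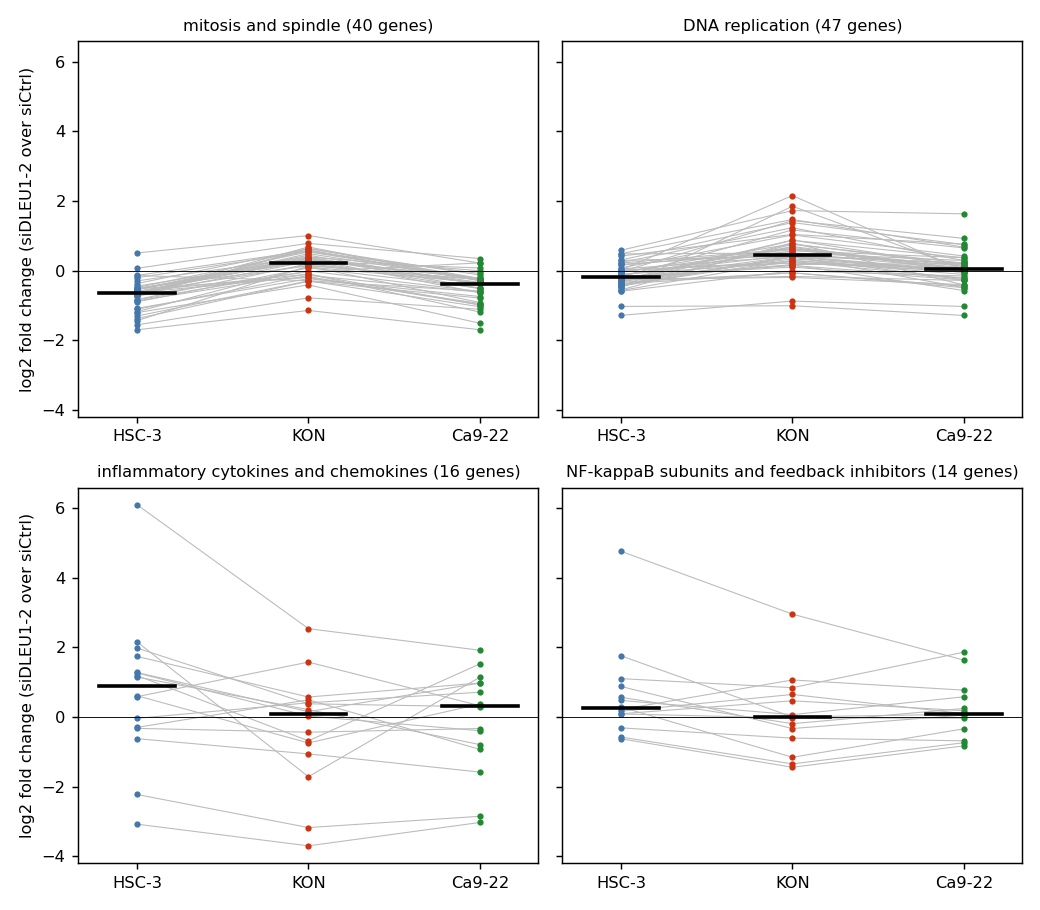
Each point is the log2 fold change (siDLEU1-2 over siCtrl, y axis) of a gene in HSC-3, KON, or Ca9-22 (x axis), gray lines join the same gene, and black bars are medians over the genes of a list. In the upper panels nearly every line peaks at KON, with 38 of 40 mitosis genes and 46 of 47 replication genes highest there. In the lower panels the medians are lowest in KON, with a wide spread among genes.

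Both lists carry their known promoter motifs. RefSeq promoter windows (250 bases before to 50 after the start, GRCh38.p14) matched 38 of the 47 replication genes and 35 of the 40 mitosis genes. The E2F motif was in 21 of the 38 replication promoters (55.3%), in 3 of the 35 mitosis promoters (8.57%), and in 3.33% of all 27305 promoters. The CHR letters TTTGAA were in 24 mitosis promoters (68.6%), in 1 replication promoter (2.63%), and in 15.4% of all. The letters CCAAT were in 27 mitosis promoters (77.1%), in 21 replication promoters (55.3%), and in 35.7% of all. All were searched on both strands, each motif was counted once per promoter, and matches of different motifs were allowed to overlap. Of the 97 KON-only higher genes, 42 had a promoter window, and 5 of these (11.9%) held the E2F motif, namely E2F2, HNRNPA3, MND1, REEP6, and ZNF131. The 73 windows of the KON-only lower genes held it in 1 case (1.37%).

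The promoter of CCNB2 is shown as an example of the mitotic kind (chr15:59104896-59105145, plus strand, GRCh38.p14). The capitals mark the CHR letters, 24 to 29 bases before the start.
CCNB2: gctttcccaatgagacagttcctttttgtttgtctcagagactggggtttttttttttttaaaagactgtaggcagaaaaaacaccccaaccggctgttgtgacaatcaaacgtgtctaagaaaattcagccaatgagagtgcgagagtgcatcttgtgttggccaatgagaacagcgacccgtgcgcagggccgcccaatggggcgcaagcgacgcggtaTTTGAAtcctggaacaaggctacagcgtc

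**Figure D3:**
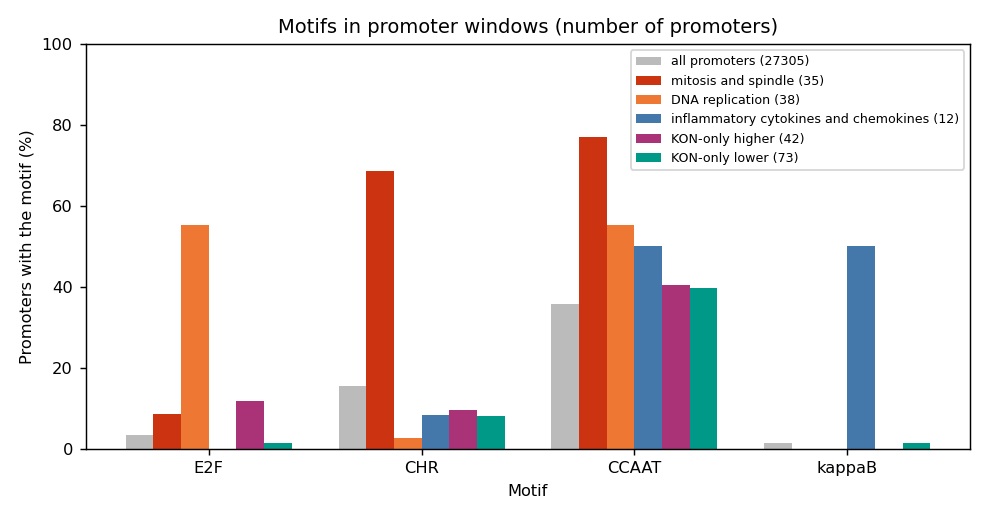
Bars give the share of promoter windows (%, y axis) that hold a motif (x axis), for all promoters, gene lists, and the KON-only classes, with the number of promoters in the key. The CHR bar is highest for mitosis genes (68.6%), the E2F bar for replication genes (55.3%), and the kappaB bar for inflammatory genes (50%, 6 of 12).

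Replication-dependent histone genes, which supply the nucleosomes of new DNA, had medians of -0.11 in KON, -0.35 in HSC-3, and -0.76 in Ca9-22. KON was above both other lines for 22 of 37 genes and below both for 1. HIST1H2AI had the largest KON difference, 1.42, at log2 levels of 1.61 and 2.09 in KON, 1.07 and 0.17 in HSC-3, and 2.25 and 1.27 in Ca9-22. HIST1H2AC had the lowest, -0.91, with -0.86 in KON against 0.45 and -0.36. Histone genes are near copies of each other, and probes may share their transcripts.

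A few genes went against both other lines. A probe was counted as opposed where it was at least 2-fold changed in KON and at least 2-fold the other way in both HSC-3 and Ca9-22, which 5 of 18094 did (0.0276%). The same rule found 3 probes with HSC-3 and 7 with Ca9-22 as the odd line. Of the 5 in KON, 4 were lower there and 1 higher, and the values that follow, for 3 of the 4 lower probes and the higher one, chose them.

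COL12A1, a collagen of dense connective tissue, had the largest KON difference in size, -4.23. Its log2 level was 4.69 after siCtrl and 3.45 after siDLEU1-2 in KON, -0.06 and 3.73 in HSC-3, and 2.15 and 4.36 in Ca9-22. KON began far above the other lines, and after siDLEU1-2 all 3 lay within 1 log2 unit. Serum amyloid SAA2, an acute phase protein, was at 3.07 and 0.76 in KON, 4.57 and 6.77 in HSC-3, and -1.80 and -0.72 in Ca9-22. It was 4.93-fold lower in KON, and its 2 other lines moved up from levels on either side of KON. SAA2 is nearly identical to SAA1, so the probe may read both. The chemokine CCL20, which attracts dendritic cells and lymphocytes through CCR6, was at 1.52 and -0.20 in KON, -0.28 and 1.88 in HSC-3, and -2.94 and -1.80 in Ca9-22. It was 3.28-fold lower in KON, 4.46-fold higher in HSC-3, and 2.21-fold higher in Ca9-22. For COL12A1 and CCL20 the siCtrl level was highest in KON. HSH2D, an adaptor protein of lymphocytes, was the 1 probe higher in KON, at -2.31 and -0.48 against 1.71 and 0.66 in HSC-3 and 2.65 and 0.96 in Ca9-22. It was lowest in KON on both arrays, and its second probe gave no such pattern, with -0.27 in KON, -0.76 in HSC-3, and 0.30 in Ca9-22. With normexp, 1 of the probes counted as opposed, and the KON differences were -3.96, -3.37, -2.46, and 2.31 in the order given.

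**Figure D4:**
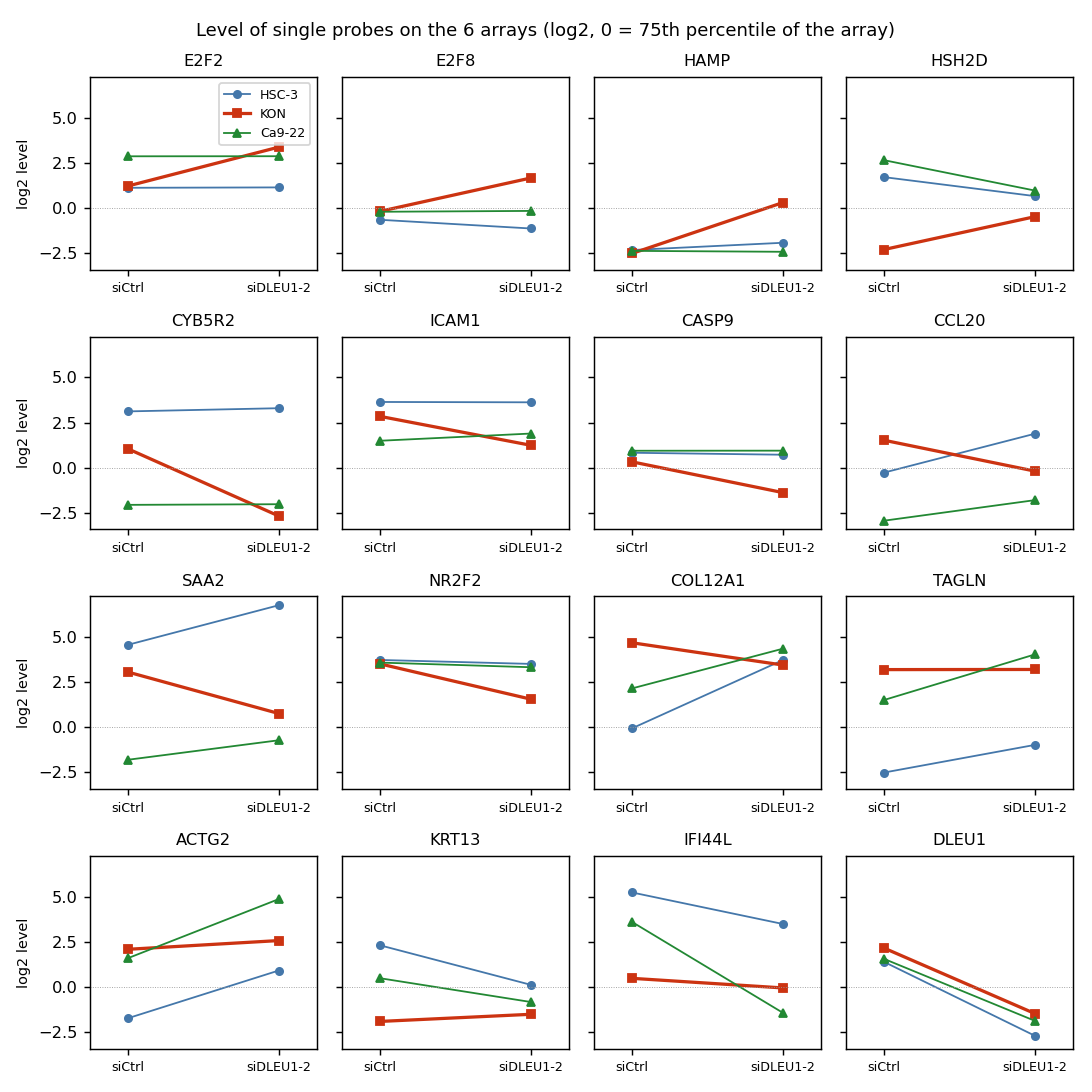
Each panel is 1 probe, with its log2 level (y axis, 0 is the 75th percentile of the array) after siCtrl and siDLEU1-2 (x axis) in HSC-3, KON, and Ca9-22, 1 array per point. E2F2, E2F8, and HAMP slope upward by over 2-fold in KON alone, CYB5R2, ICAM1, CASP9, and NR2F2 slope downward most in KON, and CCL20, SAA2, and COL12A1 slope downward in KON and upward in the other lines. DLEU1 slopes downward in each line.

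Inflammatory and NF-kappaB genes had log2 fold changes below both other lines in KON more often than above, without moving as a block. Of 16 cytokine and chemokine genes measured, 8 had a lower log2 fold change in KON than in both other lines and 2 a higher one, against 34.5% and 36.1% of all genes. The summed level of the leukocyte markers in KON was lower after siDLEU1-2 (2.80) than after siCtrl (3.49). The part of these markers in the values of the cytokine list was not tested. The medians of the list were 0.09 in KON, 0.88 in HSC-3, and 0.31 in Ca9-22, and without HSC-3 the median KON difference shrank from -0.64 to -0.20. IL6, a cytokine of the acute phase, was at 2.51 and 5.04 in KON, -0.87 and 5.22 in HSC-3, and 0.99 and 2.90 in Ca9-22. It was higher in all 3 lines, 5.79-fold in KON, 68.2-fold in HSC-3, and 3.77-fold in Ca9-22, so HSC-3 was the outlying line. IL32, a cytokine induced by NF-kappaB, was at 3.75 and 3.07 in KON, 0.30 and 1.49 in HSC-3, and -0.57 and 0.95 in Ca9-22. The interleukin-1 genes IL1A and IL1B were lower in each line, with IL1B at log2 fold changes of -3.70 in KON, -3.07 in HSC-3, and -3.03 in Ca9-22. IL11, of the IL-6 family, was the 1 gene of the 16 in the KON-only higher class, where 0.585% of all genes were. It was at 1.07 and 2.64 in KON, -1.64 and -1.06 in HSC-3, and -0.42 and -0.10 in Ca9-22.

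Of 14 NF-kappaB subunits and feedback inhibitors, 8 were below both other lines in KON and 3 above, against 34.5% and 36.1% of all genes. The medians were -0.014 in KON, 0.25 in HSC-3, and 0.09 in Ca9-22. The median KON difference of -0.53 was smaller in size without HSC-3. Subunits led the lower side. RELB, the subunit of the noncanonical pathway, was in the KON-only lower class, at 5.41 and 4.25 in KON, 3.84 and 4.13 in HSC-3, and 4.78 and 4.44 in Ca9-22. RELB was highest in KON after siCtrl and between the other lines after siDLEU1-2. RELA and NFKB1, the canonical dimer, were lower in each line and most in KON, with log2 fold changes of -1.44 and -1.35 there, -0.63 and -0.58 in HSC-3, and -0.83 and -0.74 in Ca9-22. REL had the largest KON difference of the list, 0.57, with 1.06 in KON, 0.22 in HSC-3, and 0.77 in Ca9-22. The inhibitor NFKBIA was within 1.06-fold in every line, and BIRC3, an inhibitor of cell death, was higher in each, 7.73-fold in KON, 27-fold in HSC-3, and 3.1-fold in Ca9-22. ICAM1, an adhesion molecule for leukocytes, was at 2.84 and 1.24 in KON, 3.64 and 3.62 in HSC-3, and 1.49 and 1.89 in Ca9-22, 3.04-fold lower in KON only.

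The promoters of ICAM1 and CCL20 are shown because both are known targets of NF-kappaB. The kappaB letters searched on both strands were GGAANTTCC, GGGA and TTTCC with any 1 base between them, and GGGG followed directly by TTTTCC, and matches are in capitals. They were in 6 of 12 cytokine and chemokine promoters (50%), in 4 of 12 promoters of the NF-kappaB list (33.3%), and in 1.46% of all promoters. In the KON-only lower genes 1 of 73 promoters held them (1.37%), which was ICAM1's.
ICAM1 (chr19:10270870-10271119, plus strand, GRCh38.p14): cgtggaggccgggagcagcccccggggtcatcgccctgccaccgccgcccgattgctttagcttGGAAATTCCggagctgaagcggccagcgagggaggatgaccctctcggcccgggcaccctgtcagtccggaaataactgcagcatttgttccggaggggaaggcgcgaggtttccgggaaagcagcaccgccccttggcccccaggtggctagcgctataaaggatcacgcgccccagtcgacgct
CCL20 (chr2:227813592-227813841, plus strand, GRCh38.p14): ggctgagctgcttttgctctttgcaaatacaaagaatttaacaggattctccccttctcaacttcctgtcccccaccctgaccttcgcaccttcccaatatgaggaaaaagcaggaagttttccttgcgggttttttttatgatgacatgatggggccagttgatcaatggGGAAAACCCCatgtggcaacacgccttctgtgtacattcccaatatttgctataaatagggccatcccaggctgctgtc
The match lies 178 to 186 bases before the start in ICAM1 and 70 to 79 in CCL20, where it is on the opposite strand. Promoter windows of the same kind in genes that were higher in all lines, such as IL6, held the letters too.

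The gene with the largest value among those lower in KON only was CYB5R2, a cytochrome b5 reductase. Its log2 level was 1.04 after siCtrl and -2.68 after siDLEU1-2 in KON, 3.12 and 3.29 in HSC-3, and -2.07 and -2.03 in Ca9-22. It was 13.2-fold lower in KON and within 1.13-fold in the other lines, and the KON level after siDLEU1-2 was below that of Ca9-22. With normexp its KON difference of -3.83 became -2.37. HEATR5A, an endosomal trafficking protein, had 3 probes, with KON differences of -2.47, -2.02, and -0.97, the first of them -1.62 with normexp. ATRN (attractin) was at 3.91 and 1.63 in KON, 2.53 and 2.48 in HSC-3, and 0.71 and 0.53 in Ca9-22, and its KON difference of -2.17 was -2.07 with normexp. NR2F2, a nuclear receptor of mesenchymal and endothelial fate, was at 3.52 and 1.56 in KON, 3.73 and 3.51 in HSC-3, and 3.59 and 3.33 in Ca9-22. The NR2F2 levels of the lines were close after siCtrl, and KON was lowest after siDLEU1-2. AKAP12, a scaffold for protein kinase A, was lower in KON by 2 probes, with KON differences of -1.86 and -1.69. SCD5, a fatty acid desaturase, was lower by log2 fold changes of -2.53 in KON, -0.49 in HSC-3, and -0.45 in Ca9-22, with a KON difference of -2.06 that was -1.20 with normexp, while its second probe had -0.47.

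Of the 40 apoptosis genes measured, 1 was in the KON-only lower class, CASP9, where 0.692% of all genes were. This initiator caspase of the mitochondrial pathway was at 0.32 and -1.39 in KON, 0.82 and 0.71 in HSC-3, and 0.94 and 0.94 in Ca9-22. The lines lay within 0.62 of each other after siCtrl, and CASP9 was 3.26-fold lower in KON only. CFLAR, an inhibitor of caspase-8, was lower in KON by 1 probe (KON difference -1.57, and -0.70 with normexp), while its 2 other probes had -0.47 and -0.16. HRK, a death-promoting protein with a BH3 domain, had the largest KON difference of the 40 apoptosis genes, 1.64, with log2 fold changes of 2.89 in KON, 1.81 in HSC-3, and 0.70 in Ca9-22. Over the list 19 genes (47.5%) were below both other lines in KON and 7 above, against 34.5% and 36.1% of all genes, and the medians were -0.034 in KON, 0.17 in HSC-3, and 0.013 in Ca9-22. KCNAB2, DIS3L2, PIGQ, THBS3, DHRS12, and SPATA2L complete the 15 named genes, with KON differences between -1.87 and -1.59. With normexp these were -0.95 for KCNAB2, -1.11 for DIS3L2, -0.93 for THBS3, and -0.66 for DHRS12. The 2 other probes of DIS3L2 gave -0.51 and -0.29.

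Lysosome genes had lower log2 fold changes in KON than in the other lines, by small amounts. In KON 15 of the 29 genes were above 0, in HSC-3 26, and in Ca9-22 25. Of 29 genes, 25 had a lower log2 fold change in KON than in both other lines and 3 a higher one, against 34.5% and 36.1% of all genes. The medians were 0.10 in KON, 0.49 in HSC-3, and 0.58 in Ca9-22, and 25 became 24 with the percentile over detected probes, 23 with quantile normalization, and 24 with normexp. NPC1, a cholesterol exporter of the lysosome, was at 2.13 on both KON arrays, 0.96 higher in HSC-3, and 0.66 higher in Ca9-22. CTSL2, a cathepsin of epithelium and thymus, was 1 of the 3 that were above both other lines, 4.09-fold higher in KON, 1.88-fold in HSC-3, and 2.19-fold in Ca9-22. None of the 29 genes was in the KON-only lower class, which held 0.692% of all genes.

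**Figure D5:**
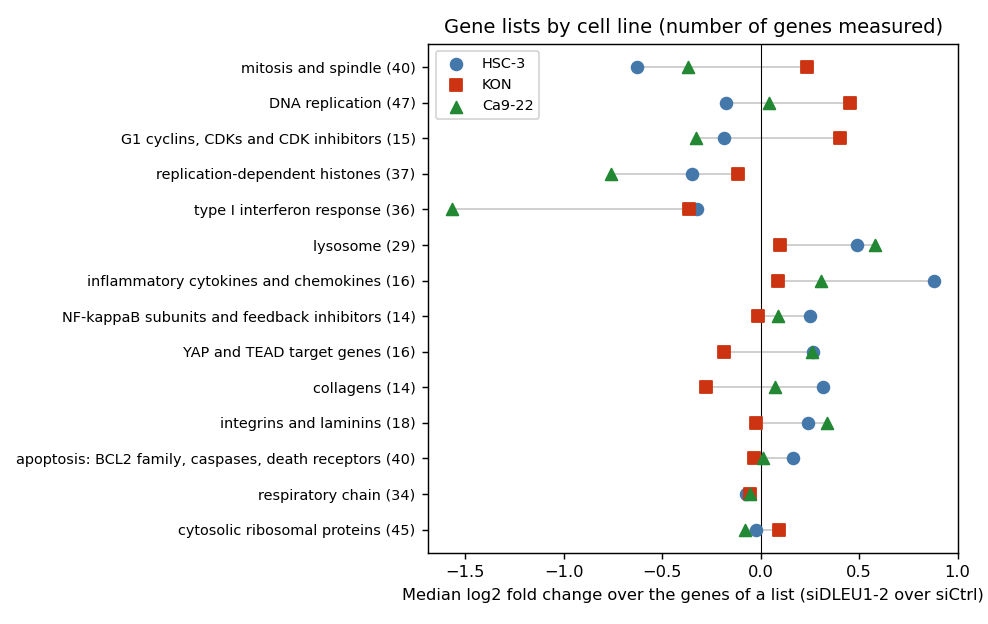
Points give the median log2 fold change (siDLEU1-2 over siCtrl, x axis) over the measured genes of each list (y axis, number of genes in parentheses) in HSC-3, KON, and Ca9-22. KON is the rightmost point for mitosis (0.23), DNA replication (0.45), G1 genes (0.40), and histones (-0.11), and the leftmost for the lists from lysosome to apoptosis. The 3 lines lie together for the respiratory chain.

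Genes that were higher in both other lines but not in KON formed a separate class, defined as at least 2-fold higher in HSC-3 and Ca9-22, under 1.5-fold changed in KON, and with a KON difference of at least 1 in size. It held 57 probes (0.315%). ACTG2, a smooth muscle actin, was at 2.09 and 2.57 in KON, -1.74 and 0.91 in HSC-3, and 1.59 and 4.87 in Ca9-22. TAGLN, an actin-binding protein of smooth muscle, was at 3.20 and 3.21 in KON, -2.51 and -0.98 in HSC-3, and 1.51 and 4.04 in Ca9-22, and its second probe gave the same KON difference of -2.02. TAGLN was highest in KON after siCtrl, and Ca9-22 was above it after siDLEU1-2. CYR61, a matrix protein and a target of YAP, was at 6.52 and 6.67 in KON, 5.54 and 8.21 in HSC-3, and 6.82 and 8.17 in Ca9-22. Also in this class was the collagen crosslinking enzyme LOXL2, 2.38-fold higher in HSC-3 and 2.86-fold in Ca9-22 but 1.21-fold lower in KON. SERPINB3 (squamous cell carcinoma antigen) was at -2.91 and -2.75 in KON, close to the dim end, against log2 fold changes of 2.25 in HSC-3 and 2.12 in Ca9-22. TIAM2, FUT4, CITED2, SYTL3, and CREG2 complete the 8 named genes, with KON differences between -2.28 and -1.89. With normexp CREG2 had -1.11 and CITED2 -1.18. The brighter CITED2 probe was in no class, as it was also 1.83-fold higher in KON, with a KON difference of -1.19. In KON the siCtrl level was above the mean of the other lines for 39 of the 57 probes, by a median of 0.80 log2 units over all 57. Of all 18094 probes, 9272 were above it, with a median of 0.02. The siCtrl levels enter the fold changes that chose the class, so they test nothing.

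The promoter of ACTG2 is shown because its 2 CArG boxes, the binding motif of serum response factor, are typical of smooth muscle genes (chr2:73892758-73893007, plus strand, GRCh38.p14). They are in capitals, and 1.29% of all promoters hold such a box.
ACTG2: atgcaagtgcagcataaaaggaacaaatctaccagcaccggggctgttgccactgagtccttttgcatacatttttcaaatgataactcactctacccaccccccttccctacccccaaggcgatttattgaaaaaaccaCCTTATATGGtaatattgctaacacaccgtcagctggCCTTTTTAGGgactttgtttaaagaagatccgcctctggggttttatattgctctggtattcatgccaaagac
Of the 27 promoters of this class that were matched, ACTG2's was the 1 with a CArG box (3.70%).

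Target genes of YAP and TEAD, which respond to tension and cell density, had medians of -0.19 in KON, 0.26 in HSC-3, and 0.26 in Ca9-22. Of 16 genes, 12 were below both other lines in KON and 2 above, and the 12 became 13 with median centering, 11 with quantile normalization, and 9 with normexp. Besides CYR61, the tissue factor gene F3 was at 6.87 and 6.24 in KON, 7.45 and 8.26 in HSC-3, and 5.93 and 7.12 in Ca9-22. LATS2, a kinase that restrains YAP, was lower in each line, with log2 fold changes of -2.13 in KON, -0.66 in HSC-3, and -1.0 in Ca9-22. ASAP1 had the largest KON difference of this list, 0.12. Collagens had medians of -0.28 in KON, 0.32 in HSC-3, and 0.07 in Ca9-22, with 6 of 14 genes (42.9%) below both other lines and 2 above, against 34.5% and 36.1% of all genes, and the median KON difference of -0.32 was -0.16 with normexp. Among integrins and laminins 10 of 18 were below and 3 above, led by the laminin chain LAMA3 at -0.44 in KON, 0.88 in HSC-3, and 1.13 in Ca9-22, while ITGA7 had the largest KON difference, 0.77.

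Genes that were lower in both other lines but not in KON numbered 41 probes (0.227%). IL6R, the receptor of IL-6, was at -1.62 and -1.66 in KON, 1.03 and -1.17 in HSC-3, and 0.74 and -1.49 in Ca9-22. The IL6R level of KON after siCtrl was below that of the other lines, and after siDLEU1-2 all 3 lay within 0.5 log2 units. KRT13, a keratin of the suprabasal oral epithelium, was at -1.91 and -1.52 in KON, 2.31 and 0.12 in HSC-3, and 0.49 and -0.83 in Ca9-22. KRT5, the keratin of basal cells, was at 5.95 and 5.74 in KON, 7.72 and 6.40 in HSC-3, and 5.83 and 3.94 in Ca9-22. ZNF750, a factor of epidermal differentiation, was at -2.69 and -2.38 in KON against log2 fold changes of -1.65 in HSC-3 and -2.52 in Ca9-22. MYB, a transcription factor of progenitor cells, had log2 fold changes of 0.51 in KON, -2.09 in HSC-3, and -1.43 in Ca9-22. LGALS9 had 2 probes with KON differences of 2.38 and 2.01 and the related LGALS9C 1 with 2.45, and their sequences are close enough that they may share transcripts. In KON the LGALS9 probes were at -3.41 and -2.96 and at -2.48 and -2.54, and LGALS9C was at 1.51 and 1.93. LGALS9 and ZNF750 were thus close to the dim end in KON, and the part of this in their KON differences was not tested. All genes named so far in this paragraph are single genes of the class. The keratin list as a whole had medians of 0.53 in KON, 0.12 in HSC-3, and 1.09 in Ca9-22, with 7 of 20 genes above both other lines in KON and 4 below. The basal keratin KRT14 had log2 fold changes of -0.31 in KON, -1.14 in HSC-3, and 1.47 in Ca9-22, so in Ca9-22 its sign was opposite to that of KRT5. In the list of cornified envelope and squamous differentiation genes 6 of 19 were above and 6 below. With normexp the KON differences were 1.13 for the first LGALS9 probe and 1.44, from 2.40, for ZNF750. For 36 of the 41 probes KON was below the mean of the other lines after siCtrl, by a median of -1.08 over all 41. Of all 18094 probes, 9272 were above that mean. As the siCtrl levels helped to choose the probes, they only describe the class. TRIM14 shows a limit of single probes: 2 of its probes had KON differences of 2.25 (1.33 with normexp) and 1.99, but its 2 others were lower in every line, by -2.47 and -1.55 in KON.

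Interferon-stimulated genes differed between the lines mainly through Ca9-22. IFI44L had log2 fold changes of -0.53 in KON, -1.75 in HSC-3, and -5.04 in Ca9-22. Of 36 genes, KON was above both other lines for 16 and below both for 2, against 36.1% and 34.5% of all genes, but the medians were -0.37 in KON, -0.32 in HSC-3, and -1.57 in Ca9-22. Without Ca9-22 the median KON difference turned from 0.79 to -0.05. IFIT1, an RNA sensor, had the largest KON difference, 2.95, at 1.78 and 3.48 in KON, 7.36 and 6.60 in HSC-3, and 5.71 and 3.97 in Ca9-22. KON had the lowest IFIT1 level with either siRNA and was the 1 line in which it was higher after siDLEU1-2.

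The remaining genes that were higher in KON only belonged to no single list. HAMP (hepcidin), the iron-regulating hormone, was at -2.52 and 0.30 in KON, -2.33 and -1.93 in HSC-3, and -2.38 and -2.43 in Ca9-22. It was below -1.9 on every array except KON after siDLEU1-2, and its KON difference of 2.65 was 1.59 with normexp. KRT19, a keratin of simple epithelium, was at -2.50 and -0.38 in KON, 9.61 and 9.65 in HSC-3, and 7.59 and 8.02 in Ca9-22. KLK8, a kallikrein protease of stratified epithelium, was at -1.88 and 0.10 in KON, 6.45 and 6.88 in HSC-3, and 5.10 and 5.31 in Ca9-22. KRT19 and KLK8 were thus near the dim end in KON and among the bright probes in the other lines, also after siDLEU1-2. With normexp their KON differences of 1.89 and 1.66 were 0.87 and 0.999. SMAD6, an inhibitor of BMP signaling, was at -0.63 and 1.28 in KON, -2.24 and -2.13 in HSC-3, and 1.09 and 1.59 in Ca9-22. SOST (sclerostin), an inhibitor of Wnt signaling, was at 1.17 and 2.75 in KON and below -1.6 on each array of the other lines. SESN2, a stress sensor that restrains mTORC1, was 3.15-fold higher in KON, 1.39-fold in HSC-3, and 1.24-fold in Ca9-22. TCF7, a Wnt effector, was 2.11-fold higher in KON. ZNF728, NEURL1B, SH3BP4, ICOSLG, RUFY2, BFSP1, AKT2, and TLE3 complete the 15 named genes, with KON differences between 1.88 and 1.53. With normexp these were 0.97 for ZNF728, 0.72 for RUFY2, and 0.75 for AKT2. For SH3BP4 and AKT2 the value rested on 1 of 3 probes, since their other probes gave -0.26 and -0.70 and 0.09 and -0.09.

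The 34 genes of the respiratory chain had medians of -0.05 in KON, -0.08 in HSC-3, and -0.05 in Ca9-22, with 14 above both other lines in KON and 11 below. The 25 measured p53 target genes had medians of 0.12, 0.11, and 0.08 in the same order, with 7 above and 7 below. Cytosolic ribosomal proteins were above both other lines for 43 of 45 genes, but by a median KON difference of 0.14, and the count was 29 with median centering and 26 with quantile normalization. In the unfolded protein response, 14 of 19 genes were above both other lines and 2 below, with medians of 0.69 in KON, 0.45 in HSC-3, and 0.26 in Ca9-22.

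The probes higher in KON only were dim, with a median log2 level of -0.57 over the 6 arrays against 1.22 over all 18094 probes, and those lower in KON only had a median of 0.06. After siCtrl, 76 of the 100 higher probes were below the mean of the other lines in KON, by a median of -0.71, and after siDLEU1-2 75 were above it. The 121 lower probes were level with the other lines after siCtrl (64 above, median 0.03), and after siDLEU1-2 13 were above them. These levels enter the fold changes that chose the probes, so they describe the classes and test nothing. Of all 18094 probes, 9272 were above the mean of the other lines after siCtrl and 9216 after siDLEU1-2. A protein-coding RefSeq symbol was carried by 55% of the higher and 76% of the lower probes, against 72% of all probes. The GC content of the 60-base probes had medians of 41.7% and 45%, against 43.3%. Across probes the KON difference correlated with GC content at r = -0.091, and the log2 fold changes at -0.061 in KON, 0.044 in HSC-3, and -0.028 in Ca9-22, where probes share the arrays and are no independent points. The part of level and GC content in these classes was not tested. By chromosome, the medians of the KON difference ran from -0.035 on chromosome 16 to 0.084 on chromosome 6.

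Other probes of the same gene are the nearest these arrays come to a repeat, although they share the RNA and the array. Of 40 other probes of genes with a KON-only higher probe, 31 (77.5%) had a KON difference above 0 and 4 one of at least 1. Of 46 other probes of genes with a KON-only lower probe, 41 (89.1%) had one below 0 and 10 one of at least 1 in size. Over all probes the KON difference had a median of 0.011, a 5th percentile of -0.86, and a 95th percentile of 0.82. The direction was therefore mostly shared between probes of a gene. The leading probe was picked as the largest of its gene in the class, so its greater size was in part built in.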

How the data were processed

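Total RNA (100 ng) taken 72 h after transfection was labeled with Cy3 and hybridized to SurePrint G3 Human GE v2 arrays, 1 array for each of 3 lines and 2 siRNAs. The labels name the target of the siRNA, and the study's text names the siRNA of the arrays siDLEU1-2. The authors deposited Feature Extraction output (10.7.3.1 in the file headers), in which each spot has an intensity, background-subtracted and detrended but not normalized between arrays, and a series table with the same intensity, rounded (largest difference 0.497%). Probe coordinates are hg19.

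Each array's deposited intensity was put on the log2 scale and its 75th percentile was set to 0. Control and outlier spots were left out, spots of a probe were averaged, and a probe was kept where at least 50% of its spots were well above background on each of 6 arrays. 55 probes without a usable spot were dropped. The number of arrays limits the precision. The brightest probe stood for a gene in the 39 gene lists and 4 marker lists. limma 3.58.1 in R 4.3.3 was fitted to all 18094 probes, with Benjamini-Hochberg adjustment, and the code was tested on simulated data.

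Named genes were the 15 highest and 15 lowest KON-only probes with a RefSeq symbol, up to 5 opposed in each direction, 8 in each direction of those changed in both other lines but not in KON, KON-only list members, the extremes of described lists, and 7 genes the study names. The members, lists, and motifs were chosen with earlier results of these data known. Of 14015 gene names, 10320 were current RefSeq symbols (GRCh38.p14), and promoters came from RefSeq. A batch for slide could not be fitted, as there is 1 slide. Some genes that this rule names are not reported here.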

Additional observations from a re-analysis of the deposited data

Results flagged for a closer look

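Of the 5 opposed genes, 4 are flagged here because the array pair of KON moved one way and those of HSC-3 and Ca9-22 the other. Their KON differences were -4.23 for COL12A1, -3.94 for SAA2, -3.36 for CCL20, and 3.19 for HSH2D. Gene lists whose median log2 fold change in KON had the other sign than in both other lines are flagged for the same reason. Their median KON differences were 0.78 for mitosis and spindle genes, 0.24 for G1 cyclins, CDKs, and CDK inhibitors (0.15 without HSC-3), -0.53 for NF-kappaB subunits and feedback inhibitors, -0.46 for YAP and TEAD target genes, -0.32 for collagens, -0.24 for integrins and laminins, -0.16 for apoptosis genes, -0.33 for Notch genes, 0.14 for cytosolic ribosomal proteins, and 0.016 for Wnt genes. The limma model called none of the 4 genes (adjusted p of 0.72 each), and it tests the same difference that chose them. The differences of the lists were not tested. The KON medians of the NF-kappaB, integrin and laminin, apoptosis, and Wnt lists were within 0.05 of 0 on the log2 scale, so their sign carries little. For cytosolic ribosomal proteins the KON median of 0.095 turned to -0.024 with median centering, -0.027 with quantile normalization, and -0.031 with normexp.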

How the results depend on the processing

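No paired analysis was possible because the labels give no replicate numbers and each line and siRNA has 1 array, beyond the pairing within a line that every fold change and the limma model already hold. Of 163 values recomputed for class counts, gene lists, and limma, 133 stayed within 1.5 times the count or within the spread between HSC-3 and Ca9-22, and for the named genes 472 of 531 did. The normexp setting, which also differs in its input signal and holds a quantile normalization, moved 35 of the 59 named values and reversed 1. No other setting moved as many. The cause of the changes was not tested. KON-only probes numbered 36 higher and 37 lower with normexp, 21 and 13 at 3-fold in KON, 42 and 60 with the stricter limit in the other lines, 178 and 189 without HSC-3, and 210 and 199 without Ca9-22. With normexp, 1 probe was opposed, 31 were higher and 25 lower in both other lines but not in KON. With probes well above background on at least 1 array of each line, 14 were opposed and 65 lower in both other lines but not in KON.

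The YAP list, with nearly equal medians in the other lines, had median KON differences of -0.53 (median centering), -0.456 (percentile over detected probes), -0.42 (quantile), -0.39 (normexp), -0.465 (wider filter), -0.51 without HSC-3, and -0.28 without Ca9-22. The lysosome list had -0.41 with median centering, and the integrins and laminins -0.14 with the wider filter. Without HSC-3, the inflammatory list had -0.20, the NF-kappaB list -0.23, the apoptosis list -0.081, the collagens -0.19, the G1 list 0.15, and the interferon list 1.44. Without Ca9-22, the inflammatory list had -1.04, the apoptosis list -0.27, the collagens -0.51, and the interferon list turned to -0.048. The keratins, at 0.03, turned to -0.042 with median centering. Named values also changed sign: CDH1 to -0.048 with median centering and -0.19 without Ca9-22, DLEU1 to -0.16 with normexp and -0.20 without HSC-3, and CD44 to -0.024 without HSC-3. For HAS3 the mean of its probes was 0.44, which mixes the 1.07 of the first with the -0.20 of the second. limma called 0 probes under each setting.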
